A study of Mus musculus with 12 samples.

Results

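The cytosolic ribosomal protein genes encode the proteins of the small (40S) and large (60S) subunits of the ribosome that translates messenger RNA in the cytoplasm. Their members were taken by symbol from the RefSeq table (Rpl or Rps with a digit, Rplp with a digit, and Rpsa), without pseudogene symbols, S6 kinases and genes on the sex chromosomes. This gave 84 of 24197 RefSeq genes, of which 73 were the canonical genes of the 2 subunits and of the stalk, and 11 were paralogs, retrogenes or the binding protein gene Rps19bp1. Of the 84 genes, 79 reached 1 FPKM (fragments per kb of transcript, scaled to library size) in a group, among 7306 genes of the table that did so. The rest were Rpl37rt, Rps4l and Rpl3l below that level, and Rpl10l and Rpl39l, which were listed at 0 in every group.

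Liver came from intact, untreated CD-1 mice, an outbred stock with no engineered allele named in the labels, at an age of 7 to 11 weeks. The study sequenced total RNA and RNA from purified nuclei of males and females, to find genes and long noncoding RNAs that differ between the sexes. The 4 groups were total RNA of females, total RNA of males and nuclear RNA of either sex, with 3 pools each, and each pool joined RNA of 12 to 17 mice. The deposited tables hold the authors' mean per group and the authors' comparison of males with females within each fraction, so the pools carry no SD here and a gene was called when its deposited adjusted p was under 0.05.

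Every ribosome needs 1 copy of nearly all of these proteins, and their genes are expressed together in all growing cells. Their messenger RNAs typically begin with a C followed by a run of pyrimidines, the terminal oligopyrimidine tract, through which TOR signalling and the binding protein LARP1 control their translation. Hepatocytes, which secrete most plasma proteins, hold many ribosomes, and many introns of ribosomal protein genes carry small nucleolar RNAs that guide the modification of ribosomal RNA.

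Recovered library sizes ranged from 17.9 to 24.4 M reads (M, mega), but 1 size of male total RNA was not recovered. The smallest value found there, 11.2 M, is what 1 read in each of the other 2 pools would give. In the other groups a summed 3 counts per kb would give 0.0452 to 0.0477 FPKM, a floor that covers counting error only. All 3 nuclear pools of each sex ran in lane 4 and all male total pools in lane 3, and the female total pools were split, 1 in lane 3 and 2 in lane 4, so sex and lane overlap in part in total RNA. Fraction and lane cannot be told apart in males and overlap in part in females, where the means give no value within a lane. Hepatocyte markers were all above the level filter (8 of 8), with albumin at the authors' mean of 5481 FPKM in female and 2711 in male total RNA. In total RNA 2 of them, Alb and Cps1, were called higher in females and 2, Apoa1 and Serpina1a, higher in males by the authors' deposited table. Kupffer cell markers summed to 24.0 FPKM in female and 11.1 in male total RNA, and to 5.92 and 5.74 in nuclear RNA, and 3 of the 6 were called higher in females in total RNA by the authors' deposited table. Past the filter, all 4 sinusoidal endothelium markers and both stellate cell markers also lay on the female side in total RNA, with Oit3 and Reln called. The erythroid gene Alas2 was called higher in males (2.02 and 6.76 FPKM in females and males, log2 2.22) by the authors' deposited table. It was the 1 call in total RNA among 3 erythroid markers past the filter. All 3 lay on the male side, with a median log2 of 0.40. The FPKM values given here carry no scaling between libraries. In total RNA the median log2 male over female of the 6 Kupffer cell markers was -0.51 on the authors' scaled ratio and -1.05 on the plain quotient of means. The part of these marker shifts in the results below was not tested. None of the 6 lymphocyte markers reached 1 FPKM (0 of 6). The nuclear RNA Malat1 stood at 737 FPKM in female and 592 in male nuclear RNA, against 201 and 118.02 in total RNA. The row Rn45s, named for the precursor of ribosomal RNA, still took 16.9% and 20.2% of the reads in female and male total RNA. In nuclear RNA it took 6.32% and 8.40%. These shares were computed from its FPKM and span. Reads of the precursor and of mature ribosomal RNA left after depletion were not told apart.

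The starts of 63 of the 84 genes were listed by RefSeq on GRCm38.p6, a later build than the mm9 of the deposited tables, and their sequences are shown because they carry the tract by which this family is recognised. In each window of 30 bases, the last 10 before and the first 20 from the annotated start, capitals mark the longest run of a C followed by 4 or more bases that are each C or T. The first 6 genes have such a run and the last 3 do not.
Rpl14 (chr9:120571507-120571536, plus strand): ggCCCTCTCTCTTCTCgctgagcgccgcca
Rpl28 (chr7:4792955-4792984, plus strand): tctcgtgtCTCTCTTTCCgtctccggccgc
Rplp2 (chr7:141447641-141447670, plus strand): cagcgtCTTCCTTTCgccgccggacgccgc
Rps6 (chr4:86857348-86857377, minus strand): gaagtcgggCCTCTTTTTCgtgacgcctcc
Rps10 (chr17:27635225-27635254, minus strand): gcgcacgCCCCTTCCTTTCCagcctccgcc
Rpl35 (chr2:39005112-39005141, minus strand): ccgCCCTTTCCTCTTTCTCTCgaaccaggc
Rpl4 (chr9:64173377-64173406, plus strand): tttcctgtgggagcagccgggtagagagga
Rpl41 (chr10:128549149-128549178, minus strand): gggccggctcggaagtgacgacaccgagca
Rpl22 (chr4:152325716-152325745, plus strand): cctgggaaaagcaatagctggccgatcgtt

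A tract of this kind began in the window of 41 of the 63 starts (65.1%), against 39.2% of 27025 listed starts of all genes and 40.2% of the 5290 starts of genes past the level filter. The letters CTTTC, which a shorter run can also hold, stood in 23.8% of the windows of ribosomal protein genes and in 3.66% of all windows, and CTTCC in 19.05% and 6.48%. The run CTTTT was rarer, at 6.35% and 3.03%. Over the 300 bases around the start, read on both strands, CCGGAAG occurred in 38.1% of the ribosomal protein genes, 9.12% of all genes and 19.9% of genes past the filter. AAGATGG occurred in 14.3%, 6.48% and 8.47%. GGGCGG was in 58.7% of the ribosomal protein genes and 64.7% of the genes past the filter, and TATAAA in 6.35% and 7.88%. These motifs are matches of letters around annotated starts and not measured sites, and the 3 motifs of 5 letters can lie inside the tract.

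In total RNA the ribosomal protein genes formed a band of similar levels. The median of the 79 genes was 20.1 FPKM in females and 15.3 in males, against 1.94 and 1.39 over all genes past the filter. Of the 79, 67 lay in the top 10% of genes past the filter in total RNA, at 10.3 FPKM or more, and 4 in the top 10% in nuclear RNA, at 4.87 FPKM or more. All members together made up 2.37% and 2.22% of the summed FPKM without Rn45s in female and male total RNA, and 0.657% and 0.663% in female and male nuclear RNA. The mean FPKM values carry no scaling between libraries. After the authors' scaling, the median log2 male over female of the 79 genes in total RNA was 0.05. In bulk RNA a lower level may come from fewer cells of a type or from less RNA per cell, which cannot be told apart.

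Small subunit genes had a median of 21.3 FPKM in female and 15.8 in male total RNA (30 genes), and large subunit genes 19.2 and 14.5 (40 genes). Rps2, a 40S protein near the entry of the messenger RNA channel, had the highest level of all members, with the authors' mean of 59.8 FPKM in female total, 41.0 in male total, 5.81 in female nuclear and 5.69 in male nuclear RNA. Rpl41, a very short and basic 60S peptide, followed with 51.7 and 36.8 FPKM in female and male total RNA and 5.10 and 4.81 in nuclear RNA. Rpl28, a 60S protein without a counterpart in budding yeast, had 38.2 and 27.9 FPKM in total and 4.70 and 4.84 in nuclear RNA. In these genes both total RNA groups stood far above both nuclear groups, and the 2 nuclear groups lay close together. Rpl4, which lines part of the exit tunnel for the new protein, reached 32.4 and 23.8 FPKM in total and 4.23 and 3.78 in nuclear RNA.

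The stalk of the large subunit, which recruits the translation factors, is built of Rplp0, Rplp1 and Rplp2. Rplp1 had 37.3 FPKM in female and 26.1 in male total RNA, but 1.98 and 2.25 in nuclear RNA. Rplp0, the base of the stalk, had 22.8 and 18.2 FPKM in total and 2.07 and 1.90 in nuclear RNA, and Rplp2 had 15.5 and 11.3 in total and 1.64 and 1.58 in nuclear RNA. The order of the 3 genes in total RNA was thus kept in male nuclear RNA. In female nuclear RNA Rplp0 and Rplp1 were close, with Rplp0 slightly above.

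Among canonical genes, Rps15a and Rpl22 stood below the band, and Rps3 was at its lower end. Rps15a (chromosome 7, 125247890 to 125259661 on mm9), a 40S protein, had 1.58 and 1.16 FPKM in female and male total RNA and 0.746 and 0.622 in nuclear RNA, and its row spans more of the genome (11772 bases) than that of any other member. Rpl22, an RNA-binding 60S protein, had 3.19 and 2.39 FPKM in total and 0.685 and 0.639 in nuclear RNA. Rps3, a 40S protein at the entry of the messenger RNA channel, had 8.64 and 6.36 FPKM in total and 1.09 and 1.01 in nuclear RNA. Other canonical genes lay close to Rps3, such as Rpl37 with 9.45 and 5.69 FPKM in female and male total RNA. FPKM is scaled to the transcript length that the authors' counting assumed. The longest matching reference transcripts of Rps15a, Rpl22 and Rps3 have 5179, 2051 and 1908 bases. In female total RNA their levels stood for about 514, 411 and 1037 reads, against a median of 1000 over the members. Across the 73 canonical genes the log2 level had a Spearman rho of -0.31 with the log2 span of the row, whose shared points are the same 12 libraries.

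**Figure D1:**
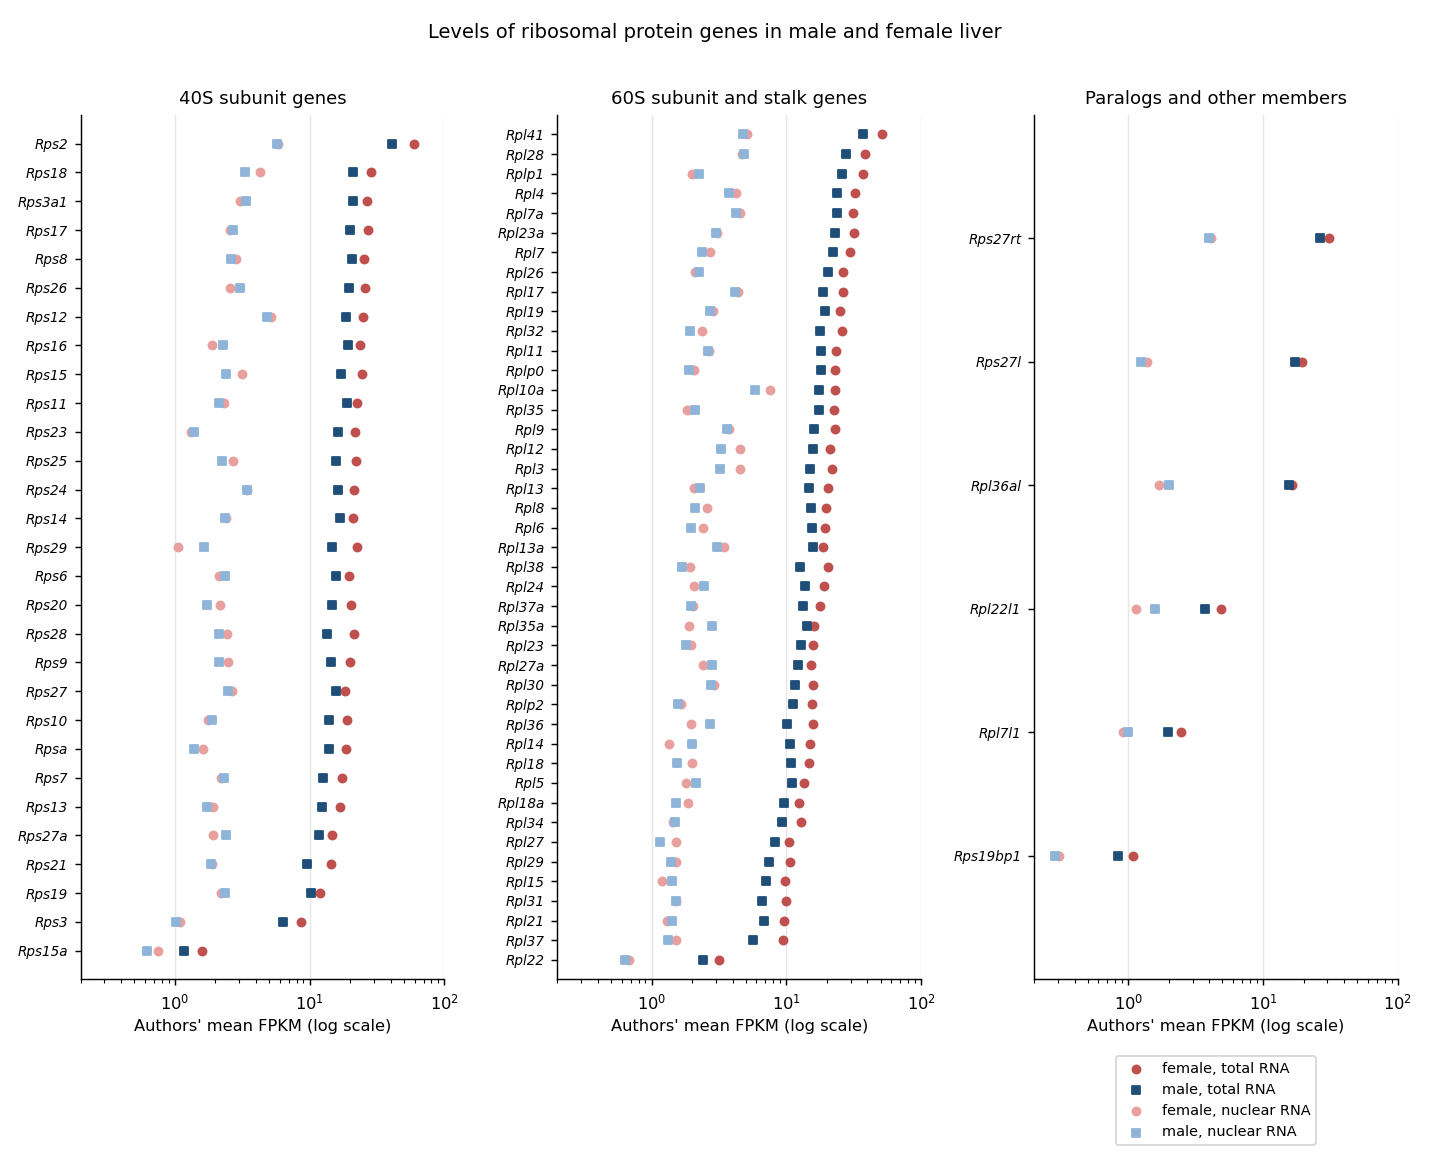
The authors' mean FPKM (log axis) of 78 of the 79 genes past the level filter in female and male total RNA (dark circles and squares) and nuclear RNA (light circles and squares), ordered by level within the 40S genes, the 60S and stalk genes and the other members. Total RNA levels lie to the right of nuclear levels for every gene shown, and female total lies to the right of male total before any scaling between libraries.

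Paralogs differed widely. Rps27l, the paralog of Rps27 and a known p53 target, had 19.5 and 17.3 FPKM in female and male total RNA and 1.37 and 1.25 in nuclear RNA. Rpl36al, an autosomal paralog of the X-linked Rpl36a, had 16.3 and 15.6 FPKM in total and 1.70 and 2.02 in nuclear RNA. Both stood at the level of canonical genes. Rpl22l1, the paralog of Rpl22, had 4.92 and 3.71 FPKM in total and 1.13 and 1.57 in nuclear RNA, which put it above Rpl22 itself in all 4 groups. Rpl7l1, the paralog of Rpl7, had 2.45 and 1.96 FPKM in total RNA, and Rps19bp1 had 1.08 and 0.844, the lowest values past the filter.

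Rps4l, an autosomal copy of the X-linked Rps4x, had 0.356 FPKM in female total, 0.597 in male total, 0.0816 in female nuclear and 0.113 in male nuclear RNA, just below the filter. The retrogene Rpl37rt had 0.183 and 0.197 FPKM in total and 0.545 and 0.349 in nuclear RNA. Rpl3l, the striated muscle paralog of Rpl3, had at most 0.0282 FPKM, below the floor. Rps27a, which encodes ubiquitin fused to a 40S protein, had 14.6 and 11.8 FPKM in total and 1.91 and 2.39 in nuclear RNA, within the range of the other canonical genes.

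Ribosomal protein genes have many processed copies in the mouse genome, and this bears on every level given here. Of 50-base windows of the reference transcripts, a median of 59.8% per gene occurred in no other annotated gene. In 27 of the 79 genes fewer than 50% of windows were unique, and in 2 genes, Rps19bp1 among them, all were. Rps27rt shows the problem most, with 8.92% unique windows and the authors' mean of 30.6 and 26.5 FPKM in female and male total RNA. The table places it on the same span of chromosome 3 as Rps27 (18.4 and 15.8 FPKM), so its level and that of Rps27 are uncertain. Rpl34 (12.9 and 9.21 FPKM) likewise shares its span with the row Rpl34-ps1 (21.4 and 15.4 FPKM). Across the 79 genes the log2 level in total RNA and the share of unique windows had a Spearman rho of -0.42, as a description over genes of the same libraries. How reads with several matches were counted is not stated in the sources used here, and its part in the levels was not tested.

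The order of the genes was shared between the sexes. Across the 79 genes the levels had a Spearman rho of 0.97 between female and male total RNA, and of 0.74 in females and 0.71 in males between total and nuclear RNA. These describe genes measured in the same libraries, and genes are not independent replicates.

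The sex comparison asked whether the family differed between male and female liver, where many other genes do. In total RNA 0 of the 79 genes were called by the authors' deposited table, while 8.12% of the genes past the filter were called in either direction. The lowest adjusted p in total RNA by the authors' deposited table was 0.223, for Rpl36al, and 67 of the 79 genes had an adjusted p of 1. In nuclear RNA 1 of the 79 genes was called by the authors' deposited table, against 11.4% of the genes past the filter. Among 224 other genes in the interquartile range of the members' level in total RNA (13.02 to 21.06 FPKM), 25.4% were called in total and 25.4% in nuclear RNA by the authors' deposited table. The tool behind the adjusted p of the RefSeq table and any unadjusted p were not used here, so a count at an unadjusted p under 0.05 is not given.

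The called gene was Rpl14 (chromosome 9, 120480634 to 120483770 on mm9), a 60S protein. The authors' mean for it was 1.35 FPKM in female and 2.00 in male nuclear RNA, and 14.9 and 10.7 in total RNA. The difference in nuclear RNA was log2 0.67 male over female with an adjusted p of 0.0408 by the authors' deposited table, and in total RNA log2 -0.06 with an adjusted p of 1. From the recovered depth and transcript length these nuclear levels stood for about 91 and 131 reads over 3 pools, and the counting error of the nuclear log2 value alone was 0.20. Whether the pools overlap could not be checked from means, and the difference between the fractions was not tested. Rpl35a, a 60S protein whose human gene is mutated in Diamond-Blackfan anaemia, lay just outside the threshold, with 1.90 and 2.83 FPKM in female and male nuclear RNA, log2 0.70 and an adjusted p of 0.063 by the authors' deposited table.

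No other gene was called in either fraction by the authors' deposited table. The median log2 male over female was 0.05 in total and 0.06 in nuclear RNA over the 79 genes by the authors' deposited table, against 0.00 and 0.00 over all genes past the filter. The values spread with an SD among genes of 0.12 in total and 0.24 in nuclear RNA, against 0.71 and 0.67 over all genes past the filter. The counting error of the log2 value had a median of 0.072 in total and 0.19 in nuclear RNA. For 78 genes with a usable transcript length, 57 values in total and 66 in nuclear RNA lay within 2 counting errors of 0. The values in total RNA use a male total depth that counts the 11.2 M value as a pool, so they are approximate. The counting error leaves out the variation between pools.

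More genes lay above 0 than below by the authors' deposited table, 57 of 79 in total RNA and 50 of 79 in nuclear RNA (72.2% and 63.3%, against 50.03% and 50.53% over all genes past the filter). This count depends on the scaling between libraries: on the plain quotient of the deposited means 0 of the 79 genes lay above 0 in total RNA and 29 in nuclear RNA, against 423 and 2574 of the 7306 genes past the filter. The quotient had a median of -0.43 in total and -0.06 in nuclear RNA over the members, and of -0.48 and -0.11 over all genes past the filter. The 79 genes were thus close to the median gene under both scalings.

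Among members of at least 10 FPKM in a group, the highest values in total RNA were those of a paralog and of canonical genes. Rpl36al had log2 0.37 (adjusted p = 0.223) and Rpl35a log2 0.33 (adjusted p = 0.229) by the authors' deposited table. Rps19, the 40S gene most often mutated in human Diamond-Blackfan anaemia, had 12.0 and 10.2 FPKM in female and male total RNA, which was log2 0.30 (adjusted p = 0.594) by the authors' deposited table. On the female side, the lowest value of all 79 genes was that of the 60S gene Rpl37, which did not reach 10 FPKM and is named after its value was seen (log2 -0.24, adjusted p = 0.904), by the authors' deposited table. Among members of at least 10 FPKM, Rpl38, a 60S protein known for its role in patterning of the mouse axial skeleton, had the lowest, with 20.3 and 12.6 FPKM and log2 -0.18 (adjusted p = 1) by the authors' deposited table. Rpl36 (log2 -0.15), Rps28 (log2 -0.13) and Rps29 (log2 -0.11) followed among these members, each with an adjusted p of 1 by the authors' deposited table. All 6 paralogs and other genes past the filter had positive values in total RNA, with a median of 0.21 by the authors' deposited table, and 0 of the 6 were called. Of the canonical genes 51 of 73 were positive. Rps27rt, among the 6, shares its span with the canonical Rps27 (log2 0.27 and 0.25), and Rps19bp1 rested on about 57 reads in female total RNA.

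In nuclear RNA the highest value was that of Rps29, a small zinc-binding 40S protein, with 1.05 FPKM for females, 1.65 for males and log2 0.78 (adjusted p = 0.345) by the authors' deposited table. It rested on about 27 and 42 reads over 3 pools, with a counting error of 0.36. Rpl36 had 1.96 and 2.72 FPKM and log2 0.59 (adjusted p = 0.363) by the authors' deposited table. Both were among the female-higher values of total RNA. On the female side, Rpl3, which reaches the peptidyl transferase centre, had 4.51 and 3.21 FPKM in female and male nuclear RNA and log2 -0.37 (adjusted p = 0.252) by the authors' deposited table. Rpl12, at the base of the stalk, had 4.50 and 3.27 FPKM and log2 -0.35 (adjusted p = 0.518) by the authors' deposited table. Rps15, whose tail reaches the decoding site, had log2 -0.28 (adjusted p = 0.989), and Rpl10a, the protein of the L1 stalk, log2 -0.26 (adjusted p = 0.786) by the authors' deposited table.

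Direction was compared between the fractions, which share no library. Of the 79 genes, 36 were male-higher and 8 female-higher in both fractions by the authors' deposited table, 21 were male-higher in total and female-higher in nuclear RNA, and 14 the reverse. As 57 of the 79 genes lay above 0 in total and 50 in nuclear RNA, many would be male-higher in both without any link between the fractions. Across genes the 2 log2 values had a Spearman rho of 0.08, as a description.

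**Figure D2:**
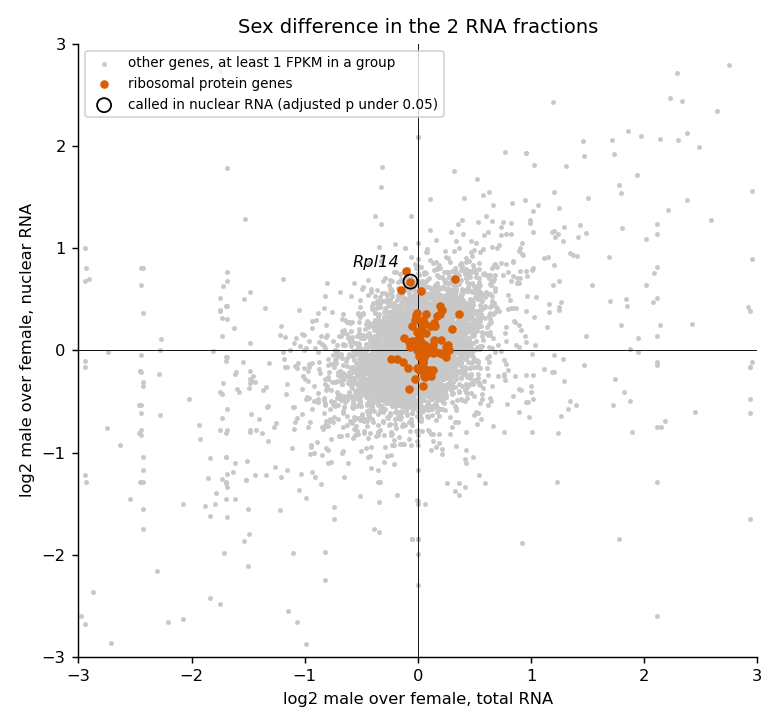
Log2 male over female in total RNA (x axis) and in nuclear RNA (y axis) from the authors' deposited table, for the 79 ribosomal protein genes (orange) and the other genes past the level filter (grey, those beyond the axis limits not shown). The orange points gather around 0 on both axes, from -0.24 to 0.37 in total and from -0.37 to 0.78 in nuclear RNA, and the circled point is Rpl14, the gene called in nuclear RNA.

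Nuclear RNA was set against total RNA of the same sex as log2((nuclear + 1)/(total + 1)) of the authors' means, less the median over all genes past the filter. The ribosomal protein genes lay far below the median gene, with a median of -2.31 in females and -2.20 in males, and all 79 genes were below 0 in both sexes. Much of this went with their level in total RNA: 224 other genes of like level had medians of -1.55 in females and -1.41 in males. Measured against those genes, an alternative chosen after seeing the data, the medians of the members were -0.76 and -0.79. Within that range of levels, 15.6% of the other genes in females and 9.38% in males lay below the median of the 39 ribosomal protein genes (-2.33 and -2.23). The total RNA level stands in both axes of such a comparison, no test over pools could be made, and fraction and lane overlapped, in females in part.

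The medians of the subunits were close, -2.39 and -2.27 for 40S and -2.21 and -2.02 for 60S genes in females and males. Their interquartile ranges overlapped, as the plot of medians by gene list shows. Stalk genes had medians of -2.65 and -2.65 (3 genes), and the 6 paralogs and other genes -1.75 and -1.59. Values of genes with low levels are drawn toward equal nuclear and total levels by the pseudocount of 1 FPKM. After centring, equal levels stand at 0.30 in females and 0.08 in males. Genes of low level were Rps15a (-0.26 and -0.34), Rpl22 (-1.01 and -0.97) and Rpl7l1 (-0.54 and -0.49). Without a pseudocount their levels also lay closer together: Rps15a had 1.58 FPKM in female total and 0.746 in female nuclear RNA. The medians of the 79 genes there were 20.1 and 2.09 FPKM. The part of the pseudocount in these values was not tested.

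Among the 69 members that reached 10 FPKM in a group, the lowest values were those of Rplp1, -3.38 in females and -2.98 in males. Rps23, which lies at the decoding centre, had 21.9 and 16.3 FPKM in female and male total RNA and 1.31 and 1.38 in nuclear RNA, which gave -3.004 and -2.79. Rps27l had -2.81 and -2.94, and Rps29 -3.22 and -2.48, the latter gene with about 27 and 42 nuclear reads in females and males. These genes were highly represented in total RNA and had nuclear levels between 1.05 and 2.25 FPKM.

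Rpl10a had the highest value among these 69, with 23.1 and 17.6 FPKM in female and male total RNA and 7.59 and 5.86 in nuclear RNA, the highest nuclear level of any member in both sexes. Its nuclear over total values were -1.18 and -1.36. Rps19 (-1.71 and -1.66), Rps12 (-1.75 and -1.68), Rpl30 (-1.80 and -1.66) and Rpl3 (-1.75 and -1.84) came next. Of these, Rpl10a, Rps12 and Rpl3 had 22.5%, 16.4% and 14.4% unique windows, so reads of their copies may enter their counts, which was not tested, while Rps19 and Rpl30 had 74.7% and 70.3%. Rpl30 also shares its span with the row Gm12191. Across the 73 canonical genes the nuclear over total value and the share of unique windows had a Spearman rho of 0.17, as a description. The order of the 79 genes was shared by the sexes, with a Spearman rho of 0.90 between female and male values.

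**Figure D3:**
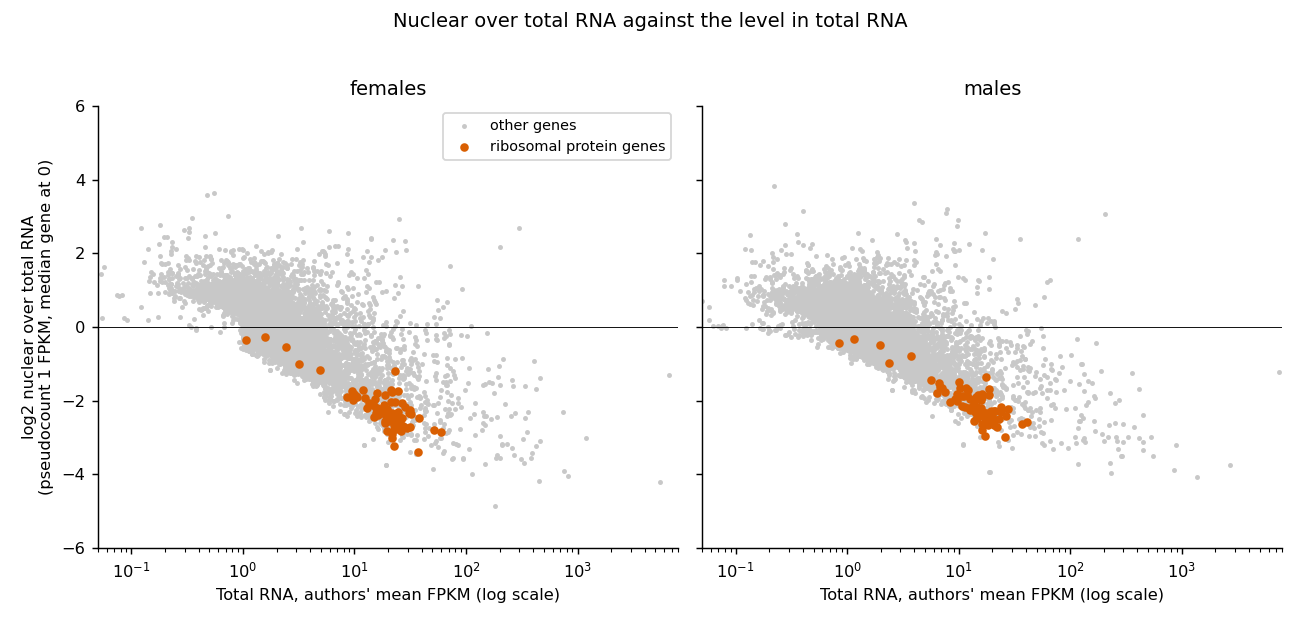
Log2 nuclear over total RNA (y axis, median gene at 0) against the authors' mean FPKM in total RNA (x axis, log scale) in females (left) and males (right), for the 79 ribosomal protein genes (orange) and the other genes past the level filter (grey, genes at 0 in total RNA or beyond the axes not shown). The grey cloud falls with the level, and the orange points lie in its lower part, around -2.31 in females and -2.20 in males.

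The start tract showed no large shift in these measures, and no test was made. The 38 genes past the filter with a tract in the window had medians of -2.26 and -2.19 for nuclear over total RNA in females and males, and the 21 without one -2.32 and -2.15. Their median log2 male over female was 0.05 and 0.06 in total RNA and 0.05 and 0.06 in nuclear RNA by the authors' deposited table. Rpl41 and Rpl4, shown above without a tract in the window, were among the 6 highest levels, and Rpl14, with a tract of 14 bases, was the called gene. A run that began before the window was not counted, and the window of Rpl4 opens within pyrimidines. The sorting of genes by tract thus depends on the annotated start.

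In the table, 31 small nucleolar RNAs lay inside 21 of the members. The 21 hosts had medians of -2.34 and -2.18 for nuclear over total RNA in females and males, and the 58 members without one -2.30 and -2.20. The small nucleolar RNAs themselves had medians of 3.29 and 2.66 FPKM in female and male nuclear RNA and 0.512 and 0.497 in total RNA. Their nuclear over total values had medians of 1.70 and 1.39 and were above that of the host for 31 of 31 in females and 30 of 30 in males, where Snord38a was listed at 0 in both fractions and has no value. Rpl13a, the 60S protein with the most of them, holds Snord32a, Snord33, Snord34 and Snord35a, and in female nuclear RNA these had 3.34, 4.07, 4.30 and 3.54 FPKM, against 3.44 for Rpl13a itself. In male nuclear RNA they had 2.46, 0.949, 3.28 and 0.854 FPKM, against 3.03 for Rpl13a. The rows of small nucleolar RNAs are far shorter than 1 kb, so a single read gives a higher FPKM there than in most genes. Some, such as Snord42b and Snord4a in female total RNA, were listed at 0. Read numbers were not computed for these rows, and their total RNA values rest on few reads.

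Of the 31, 0 were called between the sexes in total and 1 in nuclear RNA by the authors' deposited table, beside 8.12% and 11.4% of all genes past the filter. This was Snord15a in an intron of Rps3, with 5.87 FPKM in female and 10.7 in male nuclear RNA, log2 0.98 and an adjusted p of 0.00613 by the authors' deposited table. Its host Rps3 had log2 0.00 with an adjusted p of 1 in nuclear RNA in that table. The rows of these RNAs are short and hold few reads in total RNA, so the lack of calls there says little. Reads of the unspliced host can fall in these rows, and this was not tested.

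**Figure D4:**
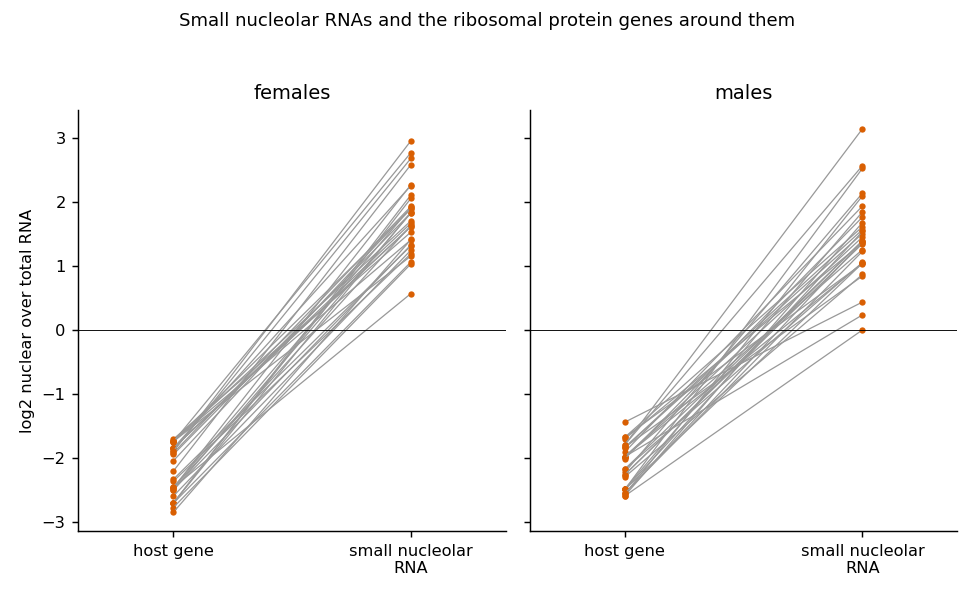
Log2 nuclear over total RNA of 31 small nucleolar RNAs (right of each panel) and of the ribosomal protein gene around each (left), joined by a line, in females (31) and males (30, without Snord38a, listed at 0 in both male groups). Every line drawn rises, from host medians of -2.34 and -2.18 to 1.70 and 1.39.

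Other genes of the ribosome and of translation give the setting. Fau encodes the ribosomal protein S30 as a fusion to a ubiquitin-like protein, and Gnb2l1 encodes the 40S scaffold RACK1. Gnb2l1 had 20.1 and 13.9 FPKM in female and male total RNA and 4.36 and 3.83 in nuclear RNA, and Fau had 17.1 and 11.2 in total and 1.62 and 1.58 in nuclear RNA. Their nuclear over total values were -1.67 and -1.55 for Gnb2l1 and -2.48 and -2.16 for Fau in females and males, and neither was called in either fraction by the authors' deposited table.

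Elongation factors covered a wider range. Eef1a1, which delivers aminoacyl-tRNA, had 259 and 200.04 FPKM in female and male total RNA and 20.6 and 21.3 in nuclear RNA, with nuclear over total values of -3.29 and -3.09. Eef2, which drives translocation, had 52.0 and 38.7 FPKM in total RNA and values of -2.11 and -2.13, and Tpt1, the translationally controlled tumour protein, whose messenger RNA also begins with a pyrimidine tract, -3.57 and -3.30. Eef1b2 and Eef1g, of the exchange factor of Eef1a1, had -1.43 and -1.44 and -1.42 and -1.43. Over the 12 genes of the elongation list past the filter the medians were -1.03 and -1.06, and of the 37 initiation genes -0.47 and -0.69.

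Other large complexes differed from the ribosome and from each other. Oxidative phosphorylation genes had medians of -1.93 and -1.73 (80 genes), proteasome genes -0.92 and -0.74 (35 genes), and mitochondrial ribosomal proteins -0.55 and -0.57 (67 genes), whose level in total RNA was also lower, at a median of 2.51 and 1.88 FPKM. Ribosome assembly genes lay at -0.02 and 0.01 (43 genes) and RNA polymerase I genes at 0.13 and 0.14 (9 genes). These medians follow the levels of the lists in part, and the differences between lists were not tested.

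**Figure D5:**
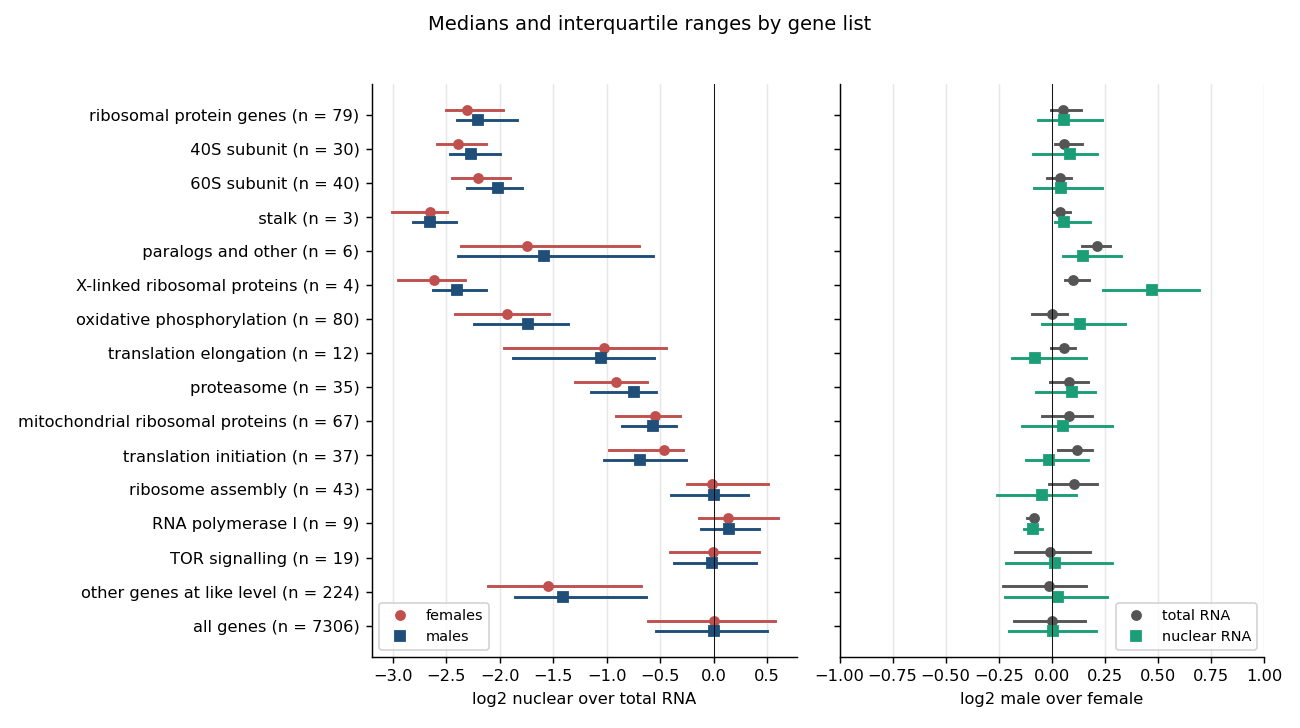
Medians (points) and interquartile ranges (lines) over genes of log2 nuclear over total RNA in females and males (left) and of log2 male over female in total and nuclear RNA from the authors' deposited table (right), for the ribosomal protein genes, other lists of the same biology, 224 other genes of like level and all genes past the filter. Ribosomal protein genes lie at -2.31 and -2.20 on the left, below the genes of like level at -1.55 and -1.41, and near 0 on the right.

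In the lists of translation and growth, 1 of 37 initiation, 1 of 12 elongation and termination and 1 of 9 RNA polymerase I genes were called in total RNA by the authors' deposited table, beside 8.12% of all genes past the filter. Eif5, the GTPase activator of initiation, had 9.12 and 8.68 FPKM in females and males, which was log2 0.40 male over female after the authors' scaling (adjusted p = 0.0191) by the authors' deposited table, and it was the call among 37 initiation genes. Gspt1, the release factor eRF3, was the call among 12 elongation and termination genes (log2 0.37, adjusted p = 0.0459), and Rrn3, an initiation factor of RNA polymerase I, the call among 9 of that list (log2 0.49, adjusted p = 0.0445) by the authors' deposited table. For these 3 genes the unscaled means were higher in females. Of the 43 assembly genes, 0 were called in total RNA by the authors' deposited table, and of the 19 genes of TOR signalling and its targets also 0.

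In nuclear RNA, 4 of 19 genes of TOR signalling and its targets were called by the authors' deposited table, 2 in each direction, beside 11.4% of all genes past the filter. Deptor, an inhibitor of TOR, had 1.41 and 2.10 FPKM in females and males (log2 0.69, adjusted p = 1.95e-07), and Larp4, which binds poly(A) tails, 1.25 and 1.50 (log2 0.38, adjusted p = 0.0302) by the authors' deposited table. Larp1, which binds the start tract, had 3.88 and 2.77 FPKM (log2 -0.37, adjusted p = 0.00272), and Tsc2, which restrains TOR, 1.64 and 1.19 (log2 -0.35, adjusted p = 0.0489) by the authors' deposited table. Gtpbp4, a GTPase of 60S assembly, was male-higher (log2 0.50, adjusted p = 0.00318), and Mrpl4, of the mitochondrial ribosome, female-higher (log2 -0.64, adjusted p = 0.0159) by the authors' deposited table. These were 1 of 43 and 1 of 67 genes, and 0 of 80 oxidative phosphorylation genes and 0 of 35 proteasome genes were called in either fraction.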

How the data were processed

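Per the file headers, a group's mean FPKM over its pools was deposited for RefSeq genes, together with a ratio (fold) of males to females and its adjusted p-value in each fraction. For lncRNAs the authors deposited mean RPKM, log2 fold change and false discovery rate, per the file headers. TopHat2, featureCounts, edgeR and build mm9 are named in the submitters' processing notes. Their versions, the strand setting and the handling of reads with several matches are not stated in the sources used here. Per the labels, ribosomal RNA was depleted in part. Groups came from the labels.

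Calls were the authors' adjusted p under 0.05 in the deposited table, and log2 values between the sexes are those of the deposited ratio, which carries a scaling between libraries that the deposited mean FPKM values lack. A count model or limma on pools was planned for values per pool and could not be run on means. Nuclear over total RNA used a pseudocount of 1 FPKM and genes of at least 1 FPKM in a group. Library sizes were recovered from the lowest FPKM of 2024 genes with 1 exon, and read numbers from these and the lengths of matching GENCODE transcripts, which also gave the shared 50-base windows; for 300 long genes the length implied by the lowest FPKM had a median ratio of 0.96 to that length. The recovery and the centring were tested on simulated data. For male total RNA 1 size was not recovered, and its read numbers use 11.2 M in that place. Starts are written counted from 1 on mm9. Sequences are from RefSeq, GRCm38.p6, the first listed start per gene. Python 3.11.15, numpy 2.4.6, pandas 2.3.3, scipy 1.17.1 and matplotlib 3.10.9 were used.

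Members, lists and tests were chosen with earlier results of these data known. Genes named by rule were the 6 highest and 6 lowest in total RNA, the 5 highest and 5 lowest in nuclear over total RNA, the 4 largest sex differences each way per fraction (members of at least 10 FPKM for the last 2), every called gene, the stalk genes, paralogs, Rps27a, hosts of small nucleolar RNAs, Fau, Gnb2l1, elongation factors and called list genes; 2 genes that the rule would name are not reported here, and of the hosts, only those with a point of their own are named. Rps15a, Rpl22, Rps3, Rpl22l1, Rpl7l1 and Rps19bp1 are the 6 lowest among genes past the filter, a form of the rule chosen after their values were seen. Alternatives were other p thresholds, scalings, filters, pseudocounts and centrings, and sets without paralogs or hosts.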

Additional observations from a re-analysis of the deposited data

How the results depend on the processing

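The number of genes called in total RNA stayed at 0 at adjusted p under 0.01 and 0.2 and with the 73 canonical genes alone. In nuclear RNA it was 0 at 0.01 and 2 at 0.2, by the choice of threshold alone, and 1 with the canonical genes. The median log2 male over female changed sign to -0.43 in total and -0.059 in nuclear RNA on the unscaled quotient of means, by the missing scaling, and moved by under 0.02 with that quotient centred on all genes and with the 10 FPKM filter or none. The median of nuclear over total RNA kept its sign throughout. In females and males it was -2.50 and -2.50 with a pseudocount of 0.1 FPKM, -2.51 and -2.52 with none, -2.62 and -2.28 without centring, -2.11 and -2.02 centred on the whole level range of the members, -0.83 and -0.86 with the 10 FPKM filter (69 members, and only high genes left in the centring), -2.59 and -2.28 without a filter, and -0.76 and -0.79 centred on other genes in the interquartile level range, a setting chosen after seeing the data. Without hosts of small nucleolar RNAs it was -2.30 and -2.20. The cause of each move was not tested further. No paired analysis was possible because the tables hold group means, and for the same reason leaving out each pool and DESeq2 were not run. Nuclear values rested on a median of about 116 reads per gene in females and 122 in males over 3 pools.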

Other observations

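Ribosomal protein genes on the X chromosome, outside the rule above, had levels like those of the autosomal members. Rpl10, a 60S protein near the peptidyl transferase centre, had the authors' mean of 55.3 FPKM in female and 43.4 in male total RNA and 8.05 and 8.19 in nuclear RNA. Rps4x, a 40S protein whose human counterpart escapes X inactivation, had 29.4 and 21.999 FPKM in total and 2.29 and 2.56 in nuclear RNA. Rpl39, which lies at the exit tunnel, had 19.9 and 15.1 in total and 0.962 and 1.41 in nuclear RNA, and Rpl36a had 13.1 and 11.5 in total and 1.30 and 2.08 in nuclear RNA. None of the 4 was called (0 of 4 in each fraction) by the authors' deposited table, where their nuclear log2 male over female values were 0.14, 0.27, 0.67 and 0.77, a median of 0.47 against 0.06 for the autosomal members, and 0.10 against 0.05 in total RNA. The difference between the medians was not tested.

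Of the long noncoding RNAs in the deposited table, 5 lie antisense to a member. The one over Rpsa, the ribosomal protein also known as the laminin receptor, had the highest level, with the authors' mean of 6.12 RPKM in female and 9.91 in male nuclear RNA and 0.869 and 1.44 in total RNA (false discovery rate 0.447 and 1 by the authors' deposited table). Its nuclear level is above the 1.63 and 1.38 FPKM of Rpsa itself, although the 2 tables were normalized separately. The other 4 had at most 0.661 RPKM in any group. Mir5121 inside Rpl13a was listed at 71.8 and 53.0 FPKM in total RNA, and its row is a short stretch of the host.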
